A study of Mus musculus with 22 samples.

Results

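Chondrocyte cultures with a conditional deletion of the DNA methyltransferase gene Dnmt1 (cKO) were compared with control cultures after 3 days of bone morphogenetic protein 2 (BMP2). The members were the 4 libraries labelled cKO and the 4 labelled Control at day 3 of BMP2, 8 of the 22 samples of the series. The cells were primary mouse chondrocytes from knee articular cartilage, taken at postnatal day 3 to 5 and given BMP2 at 100 ng/µl, per the labels and the design text. Control cells are labelled as Dnmt1 flox, alleles flanked by loxP sites, and no Cre is named for them. The cKO cells carried Prrx1-Cre with both Dnmt1 alleles floxed, so that the gene is removed where the Prrx1 limb promoter is or was active, which is the limb mesenchyme and its descendants and not only cartilage. All 8 cultures received BMP2. The labels do not say whether the replicates are separate litters or animals; the p-values measure the spread between these cultures. The library labelled as replicate 4 of cKO (cKO 4) stood apart from the other 3 cKO libraries, and results are therefore given with it and without it.

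Dnmt1 is the maintenance DNA methyltransferase, which copies methylation of CG dinucleotides (CpGs) onto the new strand when DNA is replicated. Some germ cell genes are kept silent in somatic cells by this methylation, and imprinted genes carry it on one parental allele. BMP2 acts through type I and type II receptors that phosphorylate Smad1, Smad5 and Smad9; in chondrocytes the pathway supports cartilage matrix production and later hypertrophy, and it induces its own inhibitors, among them Smad6, Smad7 and noggin. Chondrocyte identity depends on the transcription factor Sox9 with its partners Sox5 and Sox6, which drive type II collagen and aggrecan.

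The total count was 14434197 to 18503545 in the control libraries and 16328692 to 18918714 in the cKO libraries. Values are CPM, a gene's count relative to its library's scaled total. A gene at or under 3 counts in a library, which corresponded to 0.151 to 0.211 CPM, was treated as at the floor. That floor covers counting error only. Dnmt1 was measured at 83.5, 64.9, 65.9 and 68.9 CPM in controls 1 to 4 and 35.5, 36.4, 23 and 11.6 CPM in cKO 1 to 4. All 4 cKO values lay below all 4 controls, with cKO 4 the lowest (log2 fold change -1.41 ± 0.31, adjusted p = 0.00625; without cKO 4, -1.17 ± 0.16, adjusted p = 0.000252; edgeR's quasi-likelihood test, Benjamini-Hochberg adjustment over all genes tested, with ± giving the standard error of the log2 fold change, as for every adjusted p below). At day 0, before BMP2, the means were 151 CPM in controls and 27.8 CPM in cKO, a log2 fold change of -2.44. Dnmt1 RNA was thus reduced and not absent, and its genotype effect was smaller at day 3 than at day 0 in the fit without cKO 4 (log2 difference 1.28, adjusted p = 0.000392; with it, 1.02, adjusted p = 0.0968). The count covers the whole gene, and which exons were deleted is not given in the sources used here. Of 13924 genes, cKO 4 lay at least 2-fold above all 3 other cKO libraries in 588 and at least 2-fold below them in 897. The other 7 libraries stood that far from the rest of their group in 6 to 56 genes above and 20 to 112 below. Summed Y-linked expression was 5.34, 234, 265 and 5.00 CPM in controls 1 to 4 and 243, 28.7, 20.2 and 297 CPM in cKO 1 to 4, so that both groups held libraries with high and with low values, and the labels give no sex for these cultures. The sums cover Ddx3y, Eif2s3y, Kdm5d and Uty. In cKO 2 and 3, Ddx3y was at 0.151 and 0 CPM and Eif2s3y at 0 CPM in both. The sums of these 2 libraries thus came almost wholly from Kdm5d and Uty. By a count of 31-base words, 18 of the 166 genes examined share at least 20% of their transcript sequence with other genes, so that the authors' counting could have split their reads, and their values are uncertain: Igf2 (63.1%), Bglap (62.9%), Tagln (62.2%), Bnip3 (57%), C4b (48.3%), Myh1 (42.9%), Slc38a6 (40.7%), Epyc (40%), Noct (39%), Pkm (34.7%), Myh2 (34.5%), Myh6 (29.2%), Eno1 (28.5%), Cdkn1c (27.2%), Trim72 (25.3%), Uhrf1 (24.2%), Spry1 (23.1%) and H2-K1 (22.8%).

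The 8 defining chondrocyte markers summed to 99695 to 121398 CPM in the controls and 1569 to 18104 CPM in the cKO libraries, and none of the 8 was at 0 in a control. Of these markers, Matn1 alone was at 0 in a cKO library, in cKO 4. The 7 skeletal muscle markers (Myod1, Myog, Myh3, Acta1, Tnnt3, Ckm and Des) summed to 1.69 to 2.17 CPM in the controls and 139 to 1756 CPM in the cKO libraries, whereas the 5 fibroblast markers ranged from 6830 to 8733 CPM and from 9389 to 10456 CPM. Of these 5, Col1a1 alone was higher in every cKO library than in every control (3699 to 5117 against 6677 to 9086 CPM), whereas Col3a1 was at 2292 to 3485 and 1197 to 2787 CPM, and Dcn was below every control in cKO 4, at 127 CPM. Macrophage, endothelial, Schwann and epithelial defining markers were near 0 in both groups: Tyrobp had 0 counts in every library, Adgre1 and Cdh5 at most 3, Epcam at most 3 and Sox10 at most 1. The tendon marker Tnmd had at most 1 count in any library, and the adipocyte marker Adipoq had 0 in the controls and at most 29 in a cKO library. The part of any other cell type in the differences below was not tested beyond these values.

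With all 8 libraries, 3551 of 13924 genes tested were higher in cKO (25.5%) and 3142 were lower (22.6%) at an adjusted p under 0.05. Without cKO 4 the numbers were 4074 of 14159 higher (28.8%) and 3734 lower (26.4%). Of 13912 genes tested both ways, 3437 were higher both times and 3083 lower both times, and 0 changed direction. A further 1126 genes were called only without cKO 4, of which 510 were higher and 616 lower, and 172 only with it, of which 113 were higher and 59 lower. With a change of at least 1 on the log2 scale, 1848 genes were higher and 842 lower with cKO 4, and 1858 and 898 without it. In 263 genes called higher both ways, every control library was at or under 3 counts, whereas 5 genes called lower both ways had every cKO library at or under 3 counts. Against these backgrounds, a count of called members in a gene list is read below.

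**Figure D1:**
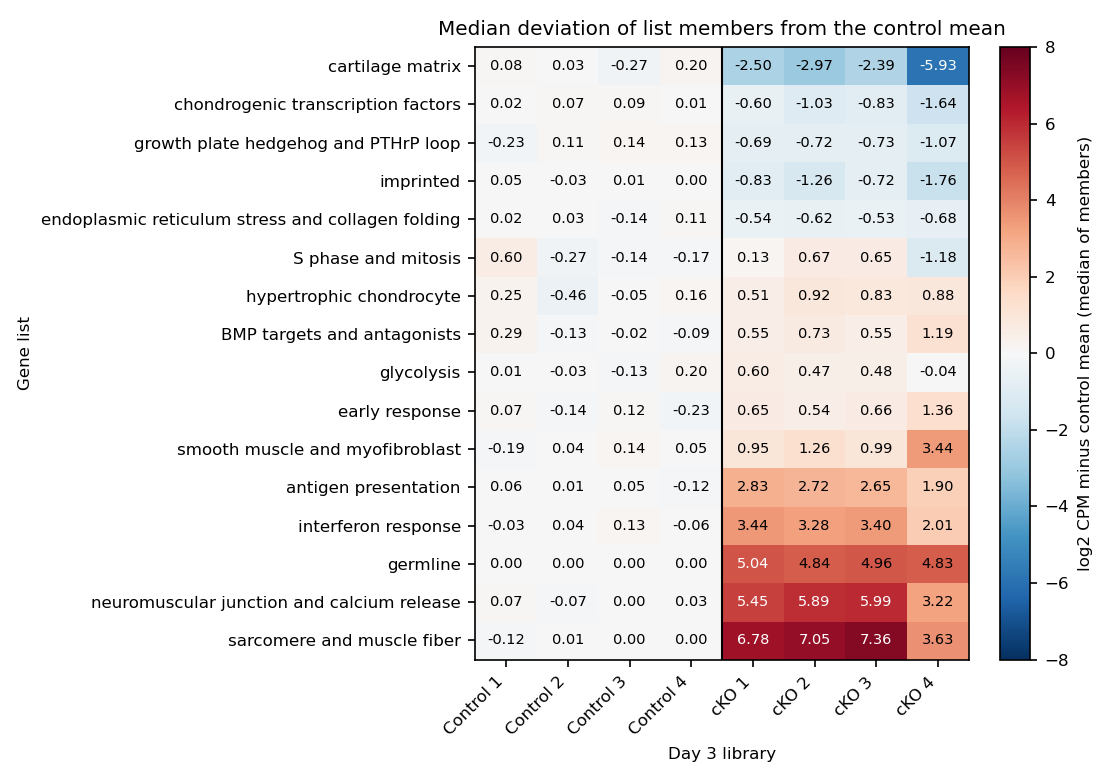
Median deviation of 16 gene lists (rows) from the mean of the 4 controls in each of the 8 day 3 libraries (columns), in log2 CPM, with the value written in each cell. The cKO 4 column is the lowest for cartilage matrix (-5.93), is highest for smooth muscle and myofibroblast genes (3.44), and lies near the other cKO libraries for germline genes (4.83).

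Genes of the cartilage matrix were lower in cKO as a group, and cKO 4 had the lowest values. The list held the collagens II, IX, XI and XXVII, the proteoglycan aggrecan and the proteins that organise them. Of its 22 members, all tested, 18 were called lower and 0 higher with all libraries (median log2 fold change -2.98, against 0.01 over all genes tested), and all 22 were called lower without cKO 4 (median -2.63). Col2a1, the main collagen of cartilage, was at 73716, 74297, 68166 and 77833 CPM in controls 1 to 4 and 11698, 8586, 12514 and 749.6 CPM in cKO 1 to 4. The groups did not overlap, and cKO 4 was far below the other cKO libraries. Col2a1 fell, with a log2 fold change of -3.13 ± 0.72 (adjusted p = 0.00717) and of -2.75 ± 0.22 without cKO 4 (adjusted p = 8.93e-06). Bulk RNA cannot tell fewer chondrocytes from less RNA per chondrocyte, here or in any result below.

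Matn1, a matrilin that links collagen fibrils, was at 2074, 2655, 1168 and 3487 CPM in controls 1 to 4 and 52.1, 22.8, 58.8 and 0 CPM in cKO 1 to 4. Its log2 fold change with all libraries was the most negative of the 13924 genes tested. Matn1 fell, with a log2 fold change of -6.13 ± 1.22 (adjusted p = 0.00363) and of -5.72 ± 0.49 without cKO 4 (adjusted p = 1.36e-05). Cnmd, the chondrocyte membrane protein chondromodulin, was at 3694, 4941, 3310.2 and 4675 CPM in controls 1 to 4 and 801, 558, 845 and 3.61 CPM in cKO 1 to 4. All cKO libraries lay below the controls, with cKO 4 far below the other 3, and Cnmd missed the threshold in the fit with cKO 4 and passed it in the fit without. For Cnmd the log2 fold change was -2.91 ± 1.08 with all libraries (adjusted p = 0.0521) and -2.51 ± 0.20 without cKO 4 (adjusted p = 9.49e-06). Matn3, Epyc and Vit were the other 3 members that missed the threshold with cKO 4 and passed it without (adjusted p = 0.00127, 0.00513 and 0.0215; with it, 0.104, 0.0956 and 0.451). Vit was the exception among the 22 in its cKO 4 value, 4.04 CPM, above the controls at 0.983 to 3.79 CPM, while the remaining 21 members lay lower in cKO 4 than in every other cKO library.

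Chad, chondroadherin, a leucine-rich protein of the cartilage matrix, had a cKO 4 value closer to those of the other cKO libraries. It was at 35.8, 31.4, 25.7 and 31.6 CPM in controls 1 to 4 and 4.54, 3.89, 3.83 and 2.82 CPM in cKO 1 to 4. Chad fell, with a log2 fold change of -3.04 ± 0.16 (adjusted p = 6.5e-06) and of -2.93 ± 0.14 without cKO 4 (adjusted p = 3.26e-07). The sulfate donor enzyme Papss2, needed for proteoglycan sulfation, was at 588 to 959 CPM in the controls and 163, 133, 167 and 64.1 CPM in cKO 1 to 4. Papss2 fell, with a log2 fold change of -2.63 ± 0.31 (adjusted p = 0.000239) and of -2.41 ± 0.17 without cKO 4 (adjusted p = 4.44e-06). Both fell with and without cKO 4, which was the lowest library in each.

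Transcription factors of the chondrocyte lineage were lower in cKO too, with a smaller median change than the matrix genes. Of 13 listed, 12 were tested, 7 were called lower and 0 higher (median -1.14), and 8 were lower without cKO 4 (median -0.88). Sox9 was at 502, 474, 429 and 434 CPM in controls 1 to 4 and 233, 185, 220.3 and 36.3 CPM in cKO 1 to 4. All cKO libraries lay below the controls, and cKO 1 to 3 held between 185 and 233 CPM while cKO 4 was the lowest. Sox9 fell, with a log2 fold change of -1.45 ± 0.47 (adjusted p = 0.0315) and of -1.12 ± 0.10 without cKO 4 (adjusted p = 1.44e-05). The call with cKO 4 was lost when any 1 control or cKO 2 was left out (adjusted p = 0.0542 to 0.0649). Its partner Sox6 was at 188 to 254 CPM in the controls and 106, 73.6, 92.9 and 34.1 CPM in cKO 1 to 4. Sox6 fell, with a log2 fold change of -1.56 ± 0.30 (adjusted p = 0.00328) and of -1.32 ± 0.14 without cKO 4 (adjusted p = 5.35e-05). Sox5 had the smaller change, -0.70 on the log2 scale with cKO 4 (adjusted p = 0.0212) and -0.52 without it (adjusted p = 0.000293).

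Sox8, a relative of Sox9, and Nkx3-2, a repressor that holds chondrocytes in the immature state, fell in all cKO libraries alike. Sox8 was at 27.3, 22.3, 14.6 and 30.7 CPM in controls 1 to 4 and 2.68, 1.97, 3.02 and 4.04 CPM in cKO 1 to 4. Sox8 fell, with a log2 fold change of -3.02 ± 0.29 (adjusted p = 8.89e-05) and of -3.22 ± 0.28 without cKO 4 (adjusted p = 1.5e-05). For Nkx3-2 the controls held 12.9 to 16.1 CPM and the cKO libraries 4.14 to 5.34 CPM. Nkx3-2 fell, with a log2 fold change of -1.68 ± 0.13 (adjusted p = 3.42e-05) and of -1.64 ± 0.13 without cKO 4 (adjusted p = 9.72e-06). In both genes cKO 4 lay within or next to the range of the other cKO libraries.

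The hedgehog and PTHrP loop of the growth plate, in which Indian hedgehog from prehypertrophic cells signals through Ptch1, Smo and the Gli factors, was lower in part. Of 12 members 9 were tested, 7 were called lower and 0 higher with or without cKO 4 (medians -0.80 and -0.72). The ligand gene Ihh was at 10.3, 5.35, 8.3 and 9.94 CPM in controls 1 to 4 and 1.4, 1.31, 1.35 and 0.49 CPM in cKO 1 to 4. Its cKO values lay below every control, and cKO 4 was the lowest. Ihh fell, with a log2 fold change of -2.88 ± 0.34 (adjusted p = 0.000265) and of -2.64 ± 0.26 without cKO 4 (adjusted p = 3.22e-05). The pathway target Gli1 was at 10.3, 9.53, 14.9 and 15.6 CPM in controls 1 to 4 and 1.34, 0.959, 0.701 and 0.796 CPM in cKO 1 to 4. Here cKO 4 did not stand out. Gli1 fell, with a log2 fold change of -3.72 ± 0.27 (adjusted p = 2.42e-05) and of -3.66 ± 0.28 without cKO 4 (adjusted p = 7.14e-06). The receptor gene Ptch1, itself a target, was at 119 to 181 CPM in the controls and 68.5 to 87.8 CPM in the cKO libraries (log2 fold change -1.03 ± 0.14, adjusted p = 0.000499; without cKO 4, -1.11 ± 0.13, adjusted p = 9.94e-05), and the signal transducer Smo at 255.6 to 324 and 143 to 186 CPM. Smo fell, with a log2 fold change of -0.80 ± 0.11 (adjusted p = 0.000686) and of -0.72 ± 0.09 without cKO 4 (adjusted p = 0.000146).

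Genes of hypertrophic and mineralising chondrocytes moved in both directions. Of the 14 listed, 7 were called higher and 3 lower with cKO 4, and 7 and 3 without it. Spp1, the mineral-binding glycoprotein osteopontin, was at 311, 165, 416 and 207 CPM in controls 1 to 4 and 3862, 3429, 3161 and 2204 CPM in cKO 1 to 4. Every cKO library was above every control, with cKO 4 the lowest of the 4. Spp1 rose, with a log2 fold change of 3.52 ± 0.33 (adjusted p = 8.07e-05) and of 3.66 ± 0.29 without cKO 4 (adjusted p = 7.83e-06). Alpl, the phosphatase that frees phosphate for mineral, was at 50.5, 29.3, 41.8 and 69.2 CPM in controls 1 to 4 and 263, 391, 282 and 455 CPM in cKO 1 to 4. Alpl rose, with a log2 fold change of 2.87 ± 0.29 (adjusted p = 0.000121) and of 2.71 ± 0.26 without cKO 4 (adjusted p = 2.47e-05). Mmp13, the collagenase of late hypertrophy, was at 149.6, 54.3, 194 and 95.2 CPM in controls 1 to 4 and 648, 895, 549 and 1140.3 CPM in cKO 1 to 4. Mmp13 rose, with a log2 fold change of 2.71 ± 0.41 (adjusted p = 0.00088) and of 2.50 ± 0.37 without cKO 4 (adjusted p = 0.000391). In these 3 genes the groups did not overlap, and cKO 4 was the highest library for Alpl and Mmp13.

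Col10a1, the collagen that defines hypertrophy, depended on cKO 4. It was at 79.9, 25.3, 41.5 and 29.5 CPM in controls 1 to 4 and 58.1, 104, 71.2 and 1479 CPM in cKO 1 to 4. Controls and cKO 1 to 3 overlapped, because control 1 was higher than cKO 1 and cKO 3, and cKO 4 was far above every other library. For Col10a1 the log2 fold change was 3.28 ± 1.13 with all libraries (adjusted p = 0.0402) and 0.82 ± 0.36 without cKO 4 (adjusted p = 0.0804). The call with cKO 4 was also lost without any 1 of the controls (adjusted p = 0.0572 to 0.100) and with a replicate block (adjusted p = 0.232). Ibsp, bone sialoprotein, had the opposite exception, at 29.7, 22.2, 50.3 and 36.4 CPM in controls 1 to 4 and 247, 297, 263 and 23.3 CPM in cKO 1 to 4. Libraries cKO 1 to 3 lay far above the controls while cKO 4 lay inside the range of the controls (log2 fold change 2.58 ± 0.66, adjusted p = 0.0117; without cKO 4, 2.95 ± 0.22, adjusted p = 6.29e-06; with a replicate block, adjusted p = 0.0645). The gap junction protein gene Panx3, also of hypertrophic chondrocytes, was lower, at 136 to 249.84 CPM in the controls and 17.2 to 45 CPM in the cKO libraries. Panx3 fell, with a log2 fold change of -2.37 ± 0.32 (adjusted p = 0.000552) and of -2.14 ± 0.21 without cKO 4 (adjusted p = 2.78e-05). Runx2, a driver of hypertrophy, was at 38.5 to 64.3 and 48.4 to 79.2 CPM and was not called (adjusted p = 0.576, and 0.846 without cKO 4). Sp7, a factor of osteoblasts and hypertrophic cells, was at 39.5, 21.2, 25.5 and 35.6 CPM in the controls and 57.3, 87.2, 69 and 125 CPM in cKO 1 to 4. Sp7 rose, with a log2 fold change of 1.48 ± 0.28 (adjusted p = 0.00274) and of 1.22 ± 0.21 without cKO 4 (adjusted p = 0.001). Of 14 osteoblast genes, 11 were tested, 5 were called higher and 2 lower with cKO 4, and 8 and 3 without it; Bglap, osteocalcin, was at 0.062 to 0.983 CPM in the controls and 1.86, 1.51, 3.61 and 4.66 CPM in cKO 1 to 4 (log2 fold change 2.34 ± 0.63, adjusted p = 0.0148; without cKO 4, 2.03 ± 0.58, adjusted p = 0.0149), while Smpd3, a sphingomyelinase of mineralising tissue, was at 639.6 to 1029.8 and 98.8, 59.6, 80.7 and 4.35 CPM. Smpd3 fell, with a log2 fold change of -3.66 ± 0.74 (adjusted p = 0.00393) and of -3.28 ± 0.23 without cKO 4 (adjusted p = 3.46e-06).

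Inhibitors and targets of BMP signalling were mostly higher, with exceptions among the secreted antagonists. Of 28 genes listed, 27 were tested, 15 were called higher and 3 lower with cKO 4 (median 0.76), and 15 and 4 without it (median 0.58). The intracellular inhibitor Smad7 was at 16.9, 9.64, 12.6 and 11.5 CPM in controls 1 to 4 and 44.9, 56.1, 48 and 105 CPM in cKO 1 to 4. Smad7 rose, with a log2 fold change of 2.33 ± 0.31 (adjusted p = 0.000446) and of 1.97 ± 0.16 without cKO 4 (adjusted p = 1.03e-05). Smad6, the other inhibitory Smad, was at 39.3, 30.8, 33.4 and 29.4 CPM in controls 1 to 4 and 89.3, 107, 98.1 and 122 CPM in cKO 1 to 4. Smad6 rose, with a log2 fold change of 1.65 ± 0.12 (adjusted p = 3.03e-05) and of 1.56 ± 0.10 without cKO 4 (adjusted p = 2.36e-06). For both genes all 4 cKO values were above all controls and cKO 4 was the highest.

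The secreted antagonists went in both directions. Bmper, which binds BMPs outside the cell, was at 11.1, 4.9, 11.3 and 8.72 CPM in the controls and 65.1, 40.1, 37.5 and 78.6 CPM in cKO 1 to 4. Bmper rose, with a log2 fold change of 2.62 ± 0.33 (adjusted p = 0.000363) and of 2.41 ± 0.28 without cKO 4 (adjusted p = 9.12e-05). In contrast, the antagonist Nog was at 129, 92.2, 67.7 and 104 CPM in the controls and 23.2, 29.7, 27.4 and 42.9 CPM in cKO 1 to 4, lower in all cKO libraries. Nog fell, with a log2 fold change of -1.67 ± 0.24 (adjusted p = 0.000643) and of -1.88 ± 0.20 without cKO 4 (adjusted p = 4.86e-05). Grem1, the most abundant antagonist gene of the list in CPM, which is not scaled for length, was at 1685, 2268, 2388 and 1883 CPM in the controls and 1057, 1013, 993 and 1660.5 CPM in cKO 1 to 4. In Grem1 the value of cKO 4 lay just under control 1, close to the controls. Grem1 fell, with a log2 fold change of -0.80 ± 0.20 (adjusted p = 0.0107) and of -1.02 ± 0.13 without cKO 4 (adjusted p = 0.000171).

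Among direct targets, Id3, an inhibitor of basic helix-loop-helix factors, was at 132, 103, 98.3 and 100.4 CPM in the controls and 240.3, 258, 241 and 214 CPM in cKO 1 to 4. Id3 rose, with a log2 fold change of 1.14 ± 0.11 (adjusted p = 0.0001) and of 1.18 ± 0.10 without cKO 4 (adjusted p = 1.1e-05). Id1 missed the threshold with cKO 4, whose value of 60.3 CPM lay among the controls at 51.3 to 70.2 CPM. For Id1 the log2 fold change was 0.40 ± 0.15 with all libraries (adjusted p = 0.0512) and 0.50 ± 0.10 without cKO 4 (adjusted p = 0.00225). Msx2, a homeobox target, was at 5.83, 2.06, 3.16 and 4.26 CPM in the controls and 10.5, 13.7, 10.8 and 38.2 CPM in cKO 1 to 4. Msx2 rose, with a log2 fold change of 2.26 ± 0.50 (adjusted p = 0.00613) and of 1.62 ± 0.28 without cKO 4 (adjusted p = 0.001). Atoh8 rose by 1.54 on the log2 scale (adjusted p = 0.000504) and by 1.38 without cKO 4 (adjusted p = 0.000103).

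Receptors and receptor Smads changed little by comparison. Of 13 tested, 3 were called higher and 3 lower with cKO 4, and 3 and 5 without it (medians 0.10 and 0.06). The 3 that rose were the co-receptor gene Eng, at 51.8, 45.4, 54 and 36.7 CPM in the controls and 182, 175, 161 and 455 CPM in cKO 1 to 4 (log2 fold change 2.37 ± 0.35, adjusted p = 0.000827; without cKO 4, 1.87 ± 0.12, adjusted p = 2.08e-06), and the type I receptor genes Bmpr1b (log2 fold change 1.03 ± 0.16, adjusted p = 0.00102; without cKO 4, 1.03 ± 0.17, adjusted p = 0.000716) and Acvr1. Acvr1 rose, with a log2 fold change of 0.78 ± 0.08 (adjusted p = 0.000118) and of 0.74 ± 0.07 without cKO 4 (adjusted p = 3.47e-05). The receptor Smads Smad1 and Smad5 and the type I receptor Bmpr1a fell by 0.24, 0.33 and 0.24 on the log2 scale (adjusted p = 0.0282, 0.0157 and 0.0366; without cKO 4, by 0.21, 0.26 and 0.24, adjusted p = 0.0365, 0.00675 and 0.0336). The calls of Smad1 and Bmpr1a with cKO 4 were lost with a replicate block (adjusted p = 0.107 and 0.110) and without control 3 or 4 or cKO 1 or 3, and that of Bmpr1a also without control 2 or cKO 2 (adjusted p = 0.0514 to 0.0979 over these libraries) and with no expression filter (adjusted p = 0.05005).

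Many skeletal muscle genes were at or near the floor in the controls and present in all 4 cKO libraries, at lower levels in cKO 4. Of 39 sarcomere and muscle fiber genes, 33 passed the expression filter with cKO 4 and 38 without it, and 32 and 37 of these were called higher and 1 lower. The median log2 fold change was 8.33 and 7.70, or 6.44 and 6.70 with genes at the floor in every control set at their lower bound. In 17 of the 39, every control library was at or under 3 counts, so that those that passed the filter did so through the cKO libraries, and the count called is a description only. Per library, the 39 genes summed to 83.9, 93.8, 113 and 85.2 CPM in controls 1 to 4 and 2706, 3411, 4268 and 674 CPM in cKO 1 to 4. In the controls, Tpm2 alone held 54.3 to 75.3 CPM of that sum. The exception to the rise was Myh6, an alpha myosin of heart muscle, with 0.983, 0.78, 0.929 and 2.03 CPM in the controls and at most 1 count in a cKO library (at least 7.03-fold lower on the means, against the floor, and at least 7.26-fold without cKO 4).

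Myod1, the transcription factor that commits cells to muscle, had at most 2 counts in any control and 26, 37.9, 47.2 and 7.23 CPM in cKO 1 to 4 (at least 154-fold higher on the means, and at least 193-fold without cKO 4). Myog, which drives the differentiation of myoblasts, had at most 1 count in a control and 43.9, 63, 71 and 3.37 CPM in cKO 1 to 4 (at least 236-fold higher, and at least 309-fold without cKO 4). The embryonic myosin gene Myh3 had at most 1 count in a control and 237, 352, 405 and 19.2 CPM in cKO 1 to 4 (at least 1322-fold higher, and at least 1729-fold without cKO 4). The same order held for each of the 3 genes: cKO 3 highest, then cKO 2 and cKO 1, and cKO 4 well below. Pax7, Pax3, Myf5 and Myf6, which mark muscle stem cells or act beside Myod1, did not pass the expression filter in either fit.

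At day 0 Myod1 already stood at a mean of 10.9 CPM in cKO and 0 in control cultures, and the difference between its genotype effects was not called (adjusted p = 0.61, and 0.445 without cKO 4). Myog was at 0.00767 and 0.00699 CPM at day 0, and the difference was called without cKO 4 only (adjusted p = 0.488 with cKO 4 and 0.0401 without it). For Acta1, skeletal actin, it was called both ways (log2 difference 7.41, adjusted p = 0.00044; 7.78, adjusted p = 1.03e-08). Acta1 was at 0.773, 0.724, 0.496 and 0.946 CPM in controls 1 to 4 and 378, 496, 658 and 51.3 CPM in cKO 1 to 4 at day 3, without overlap. Acta1 rose, with a log2 fold change of 9.07 ± 0.89 (adjusted p = 0.000105) and of 9.43 ± 0.25 without cKO 4 (adjusted p = 1.53e-08). Des, the intermediate filament desmin, was at 0.211, 0.501, 0.991 and 0.406 CPM in the controls and 205, 298, 353 and 45.1 CPM in cKO 1 to 4. Des rose, with a log2 fold change of 8.69 ± 0.80 (adjusted p = 7.72e-05) and of 9.02 ± 0.30 without cKO 4 (adjusted p = 3.7e-08). Mymk, the membrane protein that lets myoblasts fuse, was at 0.141 to 0.372 CPM in the controls and 29.5, 39.7, 49.2 and 2.45 CPM in cKO 1 to 4. Mymk rose, with a log2 fold change of 6.86 ± 0.99 (adjusted p = 0.000732) and of 7.23 ± 0.28 without cKO 4 (adjusted p = 9.37e-08).

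Tpm2, a tropomyosin that other contractile cells express too, was unlike these genes. It was at 56.6, 61.5, 75.3 and 54.3 CPM in controls 1 to 4 and 258, 319.6, 347 and 341 CPM in cKO 1 to 4. Its controls were well above the floor, and cKO 4 was level with cKO 2 and cKO 3. Tpm2 rose, with a log2 fold change of 2.35 ± 0.14 (adjusted p = 9.41e-06) and of 2.31 ± 0.13 without cKO 4 (adjusted p = 1.08e-06). Genes of the neuromuscular junction and of calcium release followed the sarcomere genes: of 19 listed, 16 were tested and 16 were called higher with and without cKO 4 (medians 7.38 and 7.75, or 5.13 and 5.44 with floor genes at their bound), with 9 of the 19 at or under 3 counts in every control, so that this count is a description as well. Chrna1, an acetylcholine receptor subunit, was at 0.351, 0.112, 0.248 and 0.338 CPM in the controls and 37.6, 54.7, 63.6 and 7.17 CPM in cKO 1 to 4. Chrna1 rose, with a log2 fold change of 7.28 ± 0.82 (adjusted p = 0.000205) and of 7.63 ± 0.28 without cKO 4 (adjusted p = 7.4e-08). Chrng, the fetal receptor subunit, had 0 counts in every control and 14.2, 16.5, 20.4 and 1.65 CPM in cKO 1 to 4 (at least 68.8-fold higher, and at least 88.8-fold without cKO 4).

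The bases before the transcription start of 3 of these genes are shown because they hold the E-box CAGCTG, a motif that Myod1 and Myog can bind. The stretches are from RefSeq promoters of build GRCm38.p6, 5′ to 3′ on the gene's strand, and end at the base before the RefSeq start. Gene spans in GENCODE M21, which also holds other transcripts, can begin elsewhere: the Chrng stretch lies wholly inside that gene's span, 954 bases after its first base, because 1 annotated transcript starts further upstream. Capitals mark each CAGCTG, which reads the same on both strands.
Chrna1, chr2:73580339-73580538, minus strand: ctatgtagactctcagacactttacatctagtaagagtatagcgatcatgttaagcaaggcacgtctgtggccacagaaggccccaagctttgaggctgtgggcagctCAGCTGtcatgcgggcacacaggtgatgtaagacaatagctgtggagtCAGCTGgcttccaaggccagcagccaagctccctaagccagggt
Chrng, chr1:87205611-87205810, plus strand: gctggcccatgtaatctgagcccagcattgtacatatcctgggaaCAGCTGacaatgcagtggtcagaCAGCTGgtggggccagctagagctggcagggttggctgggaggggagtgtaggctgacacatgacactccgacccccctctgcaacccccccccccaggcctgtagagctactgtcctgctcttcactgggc
Des, chr1:75360092-75360291, plus strand: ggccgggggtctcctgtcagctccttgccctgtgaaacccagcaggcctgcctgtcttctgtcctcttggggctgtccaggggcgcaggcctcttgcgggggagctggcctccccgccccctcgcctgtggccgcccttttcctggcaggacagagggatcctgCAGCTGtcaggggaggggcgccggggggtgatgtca
CAGCTG was present in the 250 bases before the start in 7 of 11 neuromuscular junction and calcium release genes with a promoter in the table (63.6%), in 12 of 30 sarcomere genes (40%) and in 1 of 9 myogenic regulators and myoblast markers (11.1%, Des), against 1267 of 10703 genes tested at day 3 (11.8%). A match is a string of letters and was not tested for binding in these cells.

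Most smooth muscle and myofibroblast genes rose, and most were highest in cKO 4. Des, counted here and among the muscle genes above, was lowest in cKO 4 of the cKO libraries and had the largest rise on this list. Of 11 listed, 10 were tested, 8 were higher and 1 lower with cKO 4 (median 2.10), and 9 and 1 without it (median 1.06). The gene that fell was Smtn, smoothelin, by 0.47 on the log2 scale (adjusted p = 0.0498; without cKO 4, by 0.33, adjusted p = 0.0179), a call that was lost without any 1 control and without cKO 1 or 2 (adjusted p = 0.0554 to 0.118). Acta2, smooth muscle actin, was at 158, 213, 206 and 205 CPM in controls 1 to 4 and 422, 510.3, 437 and 1925 CPM in cKO 1 to 4. The groups did not overlap, and cKO 4 was far above the other cKO libraries. Acta2 rose, with a log2 fold change of 2.07 ± 0.51 (adjusted p = 0.00952) and of 1.22 ± 0.11 without cKO 4 (adjusted p = 2.26e-05). Actg2, an enteric smooth muscle actin, was at 0.211, 1.06, 0.991 and 1.76 CPM in controls 1 to 4 and 20.9, 27, 23.6 and 289.9 CPM in cKO 1 to 4. Actg2 rose, with a log2 fold change of 6.47 ± 1.21 (adjusted p = 0.00265) and of 4.54 ± 0.32 without cKO 4 (adjusted p = 4.01e-06). Cnn1, the actin-binding protein calponin, was at 1.76, 2.9, 1.49 and 2.57 CPM in the controls and 20.5, 22.7, 20.8 and 42 CPM in cKO 1 to 4. Cnn1 rose, with a log2 fold change of 3.59 ± 0.32 (adjusted p = 6.45e-05) and of 3.27 ± 0.19 without cKO 4 (adjusted p = 1.23e-06). For Tagln, transgelin, cKO 4 was at 583 CPM, the other cKO libraries at 84.2 to 107 and the controls at 44.2 to 55 CPM. Tagln rose, with a log2 fold change of 2.12 ± 0.65 (adjusted p = 0.0248) and of 0.90 ± 0.10 without cKO 4 (adjusted p = 6.89e-05). The Tagln call with cKO 4 was lost without any 1 control (adjusted p = 0.0543 to 0.0652) and with a replicate block (adjusted p = 0.069). Among the cKO libraries, summed skeletal muscle markers were lowest in cKO 4, where most of these genes were highest.

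**Figure D2:**
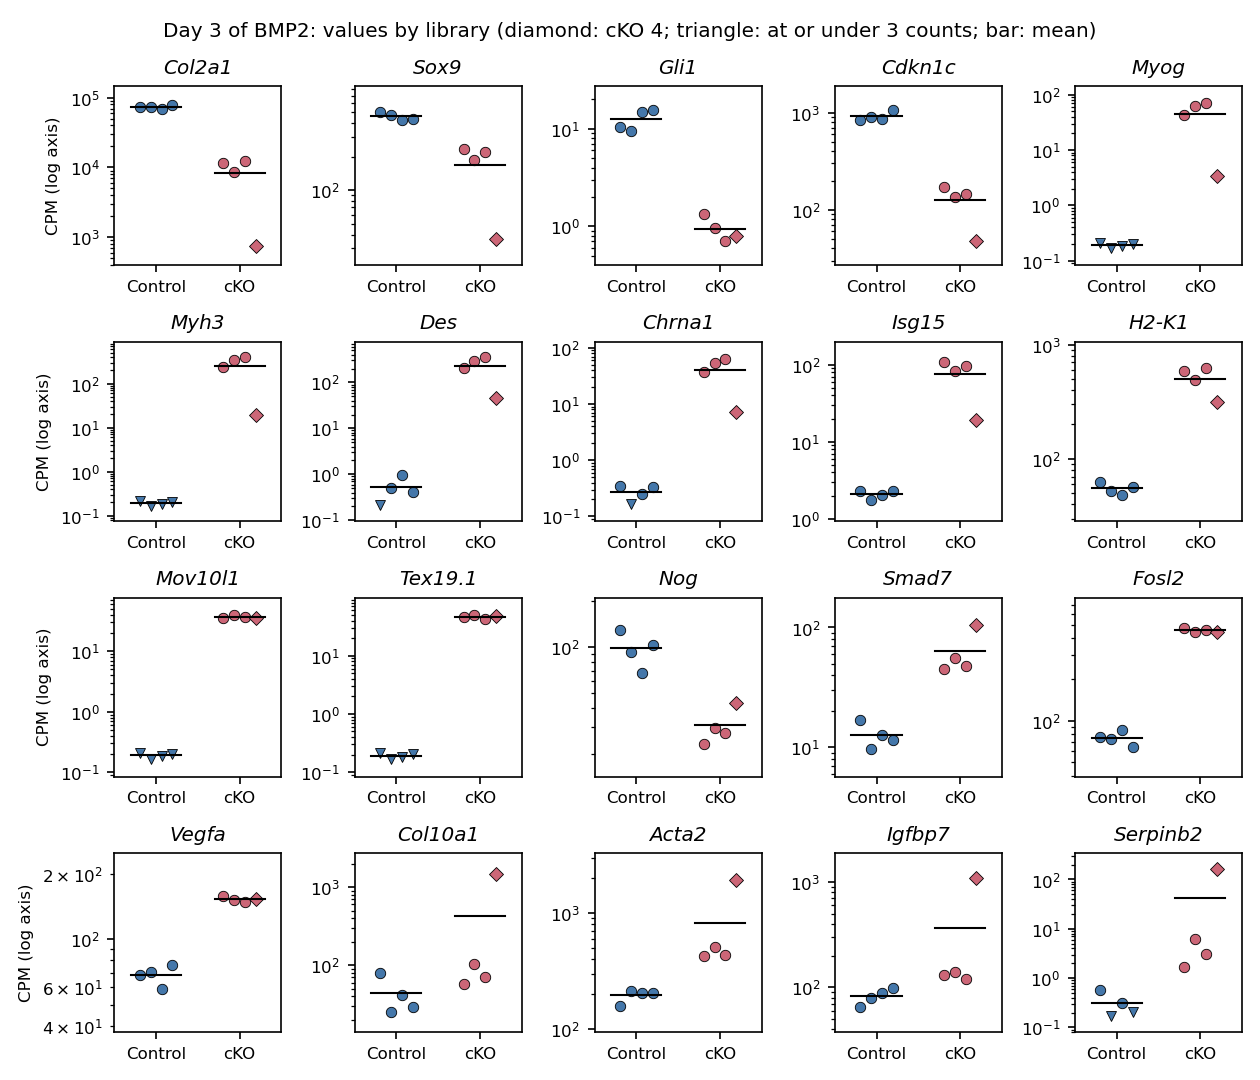
CPM on log axes for 20 genes in the 4 control and 4 cKO libraries at day 3, with the mean of each group as a bar, cKO 4 as a diamond and libraries at or under 3 counts drawn as triangles at that floor. The diamond lies with the other cKO points for Mov10l1, Tex19.1, Fosl2 and Vegfa, below them for Col2a1, Myog, Myh3 and Isg15, and above them for Col10a1, Acta2 and Igfbp7.

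Interferon response genes were higher in cKO, with cKO 4 between the controls and the other cKO libraries. Of 26 listed, 21 were tested with cKO 4 and 24 without it, and 21 and 24 were called higher (medians 3.15 and 3.58, or 3.15 and 3.58 with floor genes at their bound). Of the 26, 5 were at or under 3 counts in every control, and the count called describes the members that passed the filter. Of the 24, cKO 4 lay between the other cKO libraries and the controls in 19. Isg15, a ubiquitin-like protein made in response to interferon, was at 2.32, 1.73, 2.04 and 2.3 CPM in controls 1 to 4 and 108, 83.1, 96 and 19.11 CPM in cKO 1 to 4. Isg15 rose, with a log2 fold change of 5.19 ± 0.54 (adjusted p = 0.000146) and of 5.51 ± 0.13 without cKO 4 (adjusted p = 6.78e-09). Ifit1, which binds foreign RNA, was at 2.46, 3.9, 3.9 and 2.64 CPM in controls 1 to 4 and 100.0, 77.7, 82.3 and 13.5 CPM in cKO 1 to 4. Ifit1 rose, with a log2 fold change of 4.39 ± 0.59 (adjusted p = 0.000498) and of 4.72 ± 0.16 without cKO 4 (adjusted p = 5.01e-08). Irf7, a factor that amplifies the response, was at 3.16, 2.84, 3.59 and 3.18 CPM in the controls and 35.7, 33, 34.8 and 10.4 CPM in cKO 1 to 4. Irf7 rose, with a log2 fold change of 3.15 ± 0.38 (adjusted p = 0.000271) and of 3.43 ± 0.10 without cKO 4 (adjusted p = 1.93e-08). For all 3, cKO 4 was the lowest cKO library and still above every control.

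Mx1, an antiviral GTPase, did not share this order. It was at 7.66, 6.41, 5.27 and 7.1 CPM in controls 1 to 4 and 32.2, 35.5, 33.8 and 35 CPM in cKO 1 to 4, so that cKO 4 matched the others. Mx1 rose, with a log2 fold change of 2.37 ± 0.12 (adjusted p = 4.92e-06) and of 2.35 ± 0.12 without cKO 4 (adjusted p = 4.96e-07). The transcription factor gene Stat2 was at 13.1 to 18.6 CPM in the controls and 93.7, 73.1, 80.5 and 35.6 CPM in cKO 1 to 4. Stat2 rose, with a log2 fold change of 2.07 ± 0.28 (adjusted p = 0.000498) and of 2.29 ± 0.13 without cKO 4 (adjusted p = 9.96e-07). The smallest rise was that of Ifit2, at 13 to 15.6 CPM in the controls and 16.7 to 18.8 CPM in cKO (log2 fold change 0.33 ± 0.09, adjusted p = 0.0165; without cKO 4, 0.32 ± 0.10, adjusted p = 0.019), whose call was lost without control 4 (adjusted p = 0.0538) or with a replicate block (adjusted p = 0.063).

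The sequences before the start of Isg15 and Ifit1 are shown because they hold the letters GAAA repeated after a gap of 2 bases, the core of the interferon-stimulated response element. Source, build and reading direction are as above, and capitals mark each match on either strand, with overlapping matches run together. The last 18 bases of the Ifit1 stretch lie inside the GENCODE span of the gene.
Isg15, chr4:156200819-156201018, minus strand: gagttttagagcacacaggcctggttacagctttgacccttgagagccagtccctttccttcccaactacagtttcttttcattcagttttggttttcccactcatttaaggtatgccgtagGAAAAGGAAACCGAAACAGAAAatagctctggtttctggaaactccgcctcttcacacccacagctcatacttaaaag
Ifit1, chr19:34640689-34640888, plus strand: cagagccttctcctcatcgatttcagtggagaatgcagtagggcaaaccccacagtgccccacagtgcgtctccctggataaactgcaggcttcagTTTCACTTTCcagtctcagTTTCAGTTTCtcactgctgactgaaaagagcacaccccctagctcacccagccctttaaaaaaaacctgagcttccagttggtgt
The motif was present in 8 of 17 interferon response genes with a promoter in the table (47.1%) and in 3 of 10 antigen presentation genes (30%), against 290 of 10703 genes tested (2.71%). Both strands were searched for each motif, and overlap between different motifs was not removed.

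Antigen presentation by class I molecules rose as well. All 12 genes of the list were tested, and all 12 were called higher with and without cKO 4 (medians 2.56 and 2.75). H2-K1, a class I heavy chain, was at 62.5, 52.7, 48.7 and 56.6 CPM in controls 1 to 4 and 586, 487, 623 and 314 CPM in cKO 1 to 4. All 4 cKO values were above the controls, and cKO 4 was the lowest of them. H2-K1 rose, with a log2 fold change of 3.19 ± 0.22 (adjusted p = 1.97e-05) and of 3.35 ± 0.11 without cKO 4 (adjusted p = 3.89e-08). B2m, the shared light chain, was at 271, 255.8, 258 and 237 CPM in controls 1 to 4 and 964, 798, 1008 and 706 CPM in cKO 1 to 4. B2m rose, with a log2 fold change of 1.77 ± 0.13 (adjusted p = 2.47e-05) and of 1.85 ± 0.09 without cKO 4 (adjusted p = 4.96e-07). Psmb8, an immunoproteasome subunit, was at 0.983, 1.45, 1.3 and 0.879 CPM in the controls and 29.8, 30.5, 31.2 and 9.01 CPM in cKO 1 to 4. Psmb8 rose, with a log2 fold change of 4.43 ± 0.43 (adjusted p = 0.000105) and of 4.69 ± 0.14 without cKO 4 (adjusted p = 2.32e-08). At day 0 H2-K1 was at means of 38.4 CPM in controls and 41.7 CPM in cKO, and its genotype effect differed between day 3 and day 0 (3.05, adjusted p = 4.46e-05; without cKO 4, 3.23, adjusted p = 4.47e-08). For B2m the day 0 means were 82.4 and 85.4 CPM, and the difference was likewise called (1.70, adjusted p = 4.46e-05; 1.79, adjusted p = 1.44e-07).

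Germline genes were mostly at or near 0 in the controls, and cKO 4 was mostly close to the other cKO libraries. Of 40 listed, 27 were tested with cKO 4 and 29 without it; 23 and 26 were called higher and 0 lower (medians 7.04 and 6.54, or 4.72 and 4.30 with floor genes at their bound). In 23 of the 40, every control was at or under 3 counts, so this count too is a description only. Of 26 called without cKO 4, cKO 4 lay within the other cKO libraries in 12, beyond them in 6, between them and the controls in 6 and inside the range of the controls in 2. Mov10l1, a helicase of the piRNA pathway that silences transposons in germ cells, had 0 counts in every control and 35.1, 39, 36.2 and 35.3 CPM in cKO 1 to 4 (at least 189.9-fold higher, and at least 192-fold without cKO 4). Tex19.1, which guards germ cells against retrotransposons, had at most 1 count in a control and 45.5, 50.1, 42.4 and 48.9 CPM in cKO 1 to 4 (at least 244-fold higher, and at least 240.0-fold without cKO 4). The 4 cKO values of each gene lay within a narrow range.

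Asz1, another piRNA pathway gene, had 0 counts in every control and 10.5, 12.7, 11 and 11.2 CPM in cKO 1 to 4 (at least 59.2-fold higher, and at least 59.5-fold without cKO 4). Piwil2, a piRNA-binding protein, was measurable in the controls at 0.421, 0.669, 0.744 and 0.473 CPM and stood at 24.5, 25, 23.6 and 22.9 CPM in cKO 1 to 4. Piwil2 rose, with a log2 fold change of 5.35 ± 0.16 (adjusted p = 5.41e-07) and of 5.36 ± 0.15 without cKO 4 (adjusted p = 1.92e-08). Dazl, an RNA-binding protein of germ cells, was at 0, 0.112, 0.31 and 0.203 CPM in the controls and 24.8, 24, 21.1 and 43.2 CPM in cKO 1 to 4, with cKO 4 the highest. Dazl rose, with a log2 fold change of 7.42 ± 0.47 (adjusted p = 1.37e-05) and of 7.13 ± 0.30 without cKO 4 (adjusted p = 1.56e-07). Sohlh2, a germ cell transcription factor, had 43.9 to 53 CPM in cKO and at most 1 count in a control (at least 254-fold higher, and at least 263-fold without cKO 4). Genes of meiotic chromosomes were present at lower levels, as Syce1, of the synaptonemal complex, with 3.9, 5.05, 4.69 and 6.49 CPM in cKO 1 to 4 and 0 counts in every control (at least 26.3-fold higher, and at least 23.7-fold without cKO 4).

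Promoters of 3 germline genes are shown because CpGs are the sites that Dnmt1 maintains; capitals mark each CpG, and source, build and direction are as above. The last 85 bases of the Mov10l1 stretch and 16 of the Dazl stretch lie inside the GENCODE spans of these genes.
Mov10l1, chr15:88982744-88982993, plus strand: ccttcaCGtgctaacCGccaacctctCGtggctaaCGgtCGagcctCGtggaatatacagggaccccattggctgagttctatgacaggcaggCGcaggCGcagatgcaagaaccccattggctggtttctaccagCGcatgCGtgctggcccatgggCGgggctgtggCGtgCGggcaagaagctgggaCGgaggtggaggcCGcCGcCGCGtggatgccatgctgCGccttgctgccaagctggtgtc
Dazl, chr17:50293621-50293870, minus strand: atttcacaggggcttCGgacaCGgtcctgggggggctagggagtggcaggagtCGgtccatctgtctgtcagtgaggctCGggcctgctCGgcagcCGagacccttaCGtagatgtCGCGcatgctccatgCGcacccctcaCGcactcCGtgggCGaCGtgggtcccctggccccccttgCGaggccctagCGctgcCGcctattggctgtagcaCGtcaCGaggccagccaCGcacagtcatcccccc
Tex19.1, chr11:121145893-121146142, plus strand: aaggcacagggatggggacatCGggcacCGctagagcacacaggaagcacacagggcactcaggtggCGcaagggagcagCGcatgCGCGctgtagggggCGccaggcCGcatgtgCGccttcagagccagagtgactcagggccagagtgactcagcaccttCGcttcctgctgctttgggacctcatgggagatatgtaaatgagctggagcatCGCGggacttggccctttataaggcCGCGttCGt
These stretches held 19, 20 and 15 CpGs in 250 bases. The 34 germline genes with a promoter in the table had a median of 15 CpGs (range 6 to 34), next to 16 (range 0 to 56) for the genes tested at day 3, 5 (0 to 23) for 30 sarcomere genes and 5 (1 to 14) for 17 interferon response genes. The palindrome CACGTG, whose letters hold a CpG and are the E-box bound by Myc-type factors, was present in 14 of the 34 germline promoters (41.2%), against 892 of 10703 (8.33%); Mov10l1 is among these 14. CAGCTG was present in 8 of the 34 (23.5%). Methylation itself was not analysed here.

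**Figure D3:**
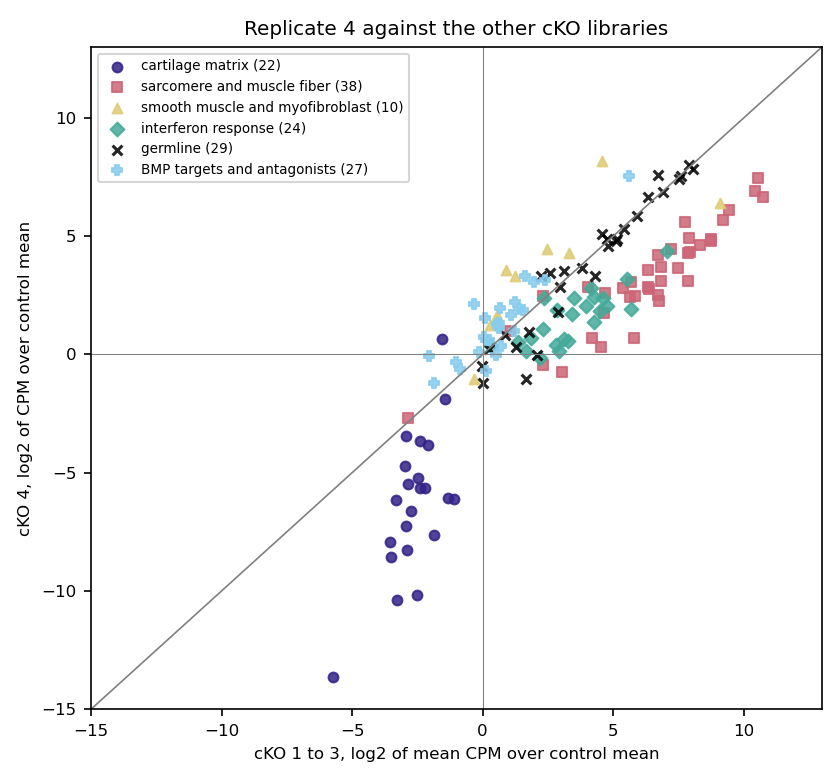
Each point is a gene of 6 lists that was tested without cKO 4, with the log2 ratio of the mean of cKO 1 to 3 over the control mean on the x axis and that of cKO 4 on the y axis (libraries under 3 counts set to that floor, and the diagonal marking equal values). Most germline genes lie near the diagonal, most cartilage matrix genes below it on the negative side, most sarcomere genes between the diagonal and 0, and most smooth muscle genes above the diagonal.

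Among the largest rises outside the lists, Slc47a1, Serpinb1c and Morc1 were at the floor in every control. Slc47a1, a transporter that extrudes organic cations, had at most 1 count in a control and 66.9, 62.5, 55.8 and 101 CPM in cKO 1 to 4 (at least 374-fold higher, and at least 322-fold without cKO 4). Serpinb1c, of the serine protease inhibitor family, had 0 counts in every control and 42.5, 41.6, 42.8 and 69.8 CPM in cKO 1 to 4 (at least 257-fold higher, and at least 221-fold without cKO 4). Morc1, needed for transposon silencing in male germ cells, had 0 counts in every control and 20.8, 24.7, 23.1 and 21.5 CPM in cKO 1 to 4 (at least 117-fold higher, and at least 119-fold without cKO 4). Nxf3, of the nuclear RNA export factor family, had 0 counts in every control and 18.1, 20.4, 16.4 and 27.2 CPM in cKO 1 to 4 (at least 107-fold higher, and at least 95.5-fold without cKO 4). The muscle genes Actc1 (cardiac actin), Xirp2 (an actin-binding protein) and Lmod3 (a leiomodin) also had 0 counts in every control and ranked with these; they were at 32 to 54, 28.4 to 41.3 and 20.7 to 36.1 CPM in cKO 1 to 3 and 3.74, 4.17 and 1.59 CPM in cKO 4.

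The 5 most abundant genes that rose by at least 1 on the log2 scale were Fn1, described below, Noct, D10Wsu102e, Slc38a6 and Lox. Noct, nocturnin, was at 177, 138, 98.9 and 113 CPM in controls 1 to 4 and 19771, 21105, 22413 and 43061 CPM in cKO 1 to 4. Noct rose, with a log2 fold change of 7.66 ± 0.41 (adjusted p = 6.53e-06) and of 7.32 ± 0.24 without cKO 4 (adjusted p = 3.53e-08). Slc38a6, an amino acid transporter family member, was at 129, 109.6, 78.3 and 88.8 CPM in controls 1 to 4 and 7641, 8307, 8660.5 and 15948 CPM in cKO 1 to 4. Slc38a6 rose, with a log2 fold change of 6.64 ± 0.35 (adjusted p = 5.89e-06) and of 6.33 ± 0.19 without cKO 4 (adjusted p = 2.67e-08). D10Wsu102e was at 407, 376, 332 and 374 CPM in controls 1 to 4 and 8455, 9041, 9808 and 15904 CPM in cKO 1 to 4. D10Wsu102e rose, with a log2 fold change of 4.86 ± 0.26 (adjusted p = 5.83e-06) and of 4.61 ± 0.12 without cKO 4 (adjusted p = 1.27e-08). Noct and Slc38a6 are among the genes with shared sequence above, and D10Wsu102e shared 16.3%, so that their levels are uncertain. In these 3 genes cKO 4 was the highest library and no control came near a cKO library. Lox, the enzyme that crosslinks collagen, was at 1689, 1790.2, 2001 and 1169 CPM in controls 1 to 4 and 3662, 3911, 4049 and 3193 CPM in cKO 1 to 4. Lox rose, with a log2 fold change of 1.16 ± 0.18 (adjusted p = 0.00101) and of 1.22 ± 0.16 without cKO 4 (adjusted p = 0.000221).

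Among the DNA methylation genes themselves, 2 of 9 were called higher and 4 lower with cKO 4, and 3 and 4 without it. The de novo methyltransferase gene Dnmt3a was at 76.3, 96.4, 110.0 and 93.2 CPM in the controls and 52.7, 50.9, 49.7 and 68.1 CPM in cKO 1 to 4. Dnmt3a fell, with a log2 fold change of -0.76 ± 0.14 (adjusted p = 0.00209) and of -0.89 ± 0.11 without cKO 4 (adjusted p = 0.00016). Dnmt3l, its cofactor in germ cells, had at most 1 count in a control and 2.33, 1.97, 1.89 and 3 CPM in cKO 1 to 4 (at least 12-fold higher, and at least 10.8-fold without cKO 4). Tet1, a demethylating dioxygenase, was at 17, 27.1, 27 and 26.7 CPM in controls 1 to 4 and 3.96, 3.03, 3.18 and 1.72 CPM in cKO 1 to 4. Tet1 fell, with a log2 fold change of -3.03 ± 0.26 (adjusted p = 5.03e-05) and of -2.86 ± 0.20 without cKO 4 (adjusted p = 4.08e-06). Uhrf1, which brings Dnmt1 to DNA, missed the threshold with cKO 4 and passed it without, where 19.7 to 27.3 CPM stood against 8.25 to 15.7 CPM; cKO 4 was at 6.31 CPM. For Uhrf1 the log2 fold change was 0.86 ± 0.41 with all libraries (adjusted p = 0.115) and 1.15 ± 0.21 without cKO 4 (adjusted p = 0.00133).

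Imprinted genes were lower more often than higher. Of 20 in the table, 19 were tested, 10 were called lower and 1 higher with cKO 4 (median -1.09), and 13 and 3 of 20 without it (median -1.17). Cdkn1c, a maternally expressed inhibitor of the cell cycle that is needed for chondrocyte differentiation, was at 849.6, 908, 866 and 1074 CPM in controls 1 to 4 and 171, 135, 146 and 47.1 CPM in cKO 1 to 4. Cdkn1c fell, with a log2 fold change of -2.89 ± 0.36 (adjusted p = 0.000318) and of -2.62 ± 0.12 without cKO 4 (adjusted p = 3.39e-07). Peg3, a paternally expressed zinc finger gene, was at 3137, 4457, 3912 and 3744 CPM in controls 1 to 4 and 777, 687, 843 and 316 CPM in cKO 1 to 4 (log2 fold change -2.54 ± 0.30, adjusted p = 0.000249; without cKO 4, -2.31 ± 0.14, adjusted p = 2.03e-06), and its neighbour Zim1 at 494 to 619.8 CPM in the controls and 36.6, 23.6, 40.7 and 3.19 CPM in cKO 1 to 4. Zim1 fell, with a log2 fold change of -4.42 ± 0.64 (adjusted p = 0.000732) and of -4.06 ± 0.19 without cKO 4 (adjusted p = 3.3e-07). For these 3 genes cKO 4 was the lowest library. Plagl1, a regulator of other imprinted genes, was at 1694, 1565, 1733 and 1283 CPM in the controls and 544, 453, 544 and 396 CPM in cKO 1 to 4. Plagl1 fell, with a log2 fold change of -1.70 ± 0.15 (adjusted p = 5.6e-05) and of -1.62 ± 0.13 without cKO 4 (adjusted p = 7.26e-06). Igf2, a growth factor gene, was at 1722, 2974, 2069 and 4022 CPM in controls 1 to 4 and 925, 816, 1531 and 131 CPM in cKO 1 to 4; it missed the threshold with cKO 4 and passed it without. For Igf2 the log2 fold change was -1.66 ± 0.62 with all libraries (adjusted p = 0.0521) and -1.31 ± 0.32 without cKO 4 (adjusted p = 0.00689). Peg10 went up in cKO 1 to 3, at 1269 to 1370.5 CPM against 564 to 734 CPM in the controls, and was at 428 CPM in cKO 4. For Peg10 the log2 fold change was 0.78 ± 0.33 with all libraries (adjusted p = 0.0775) and 1.04 ± 0.09 without cKO 4 (adjusted p = 1.63e-05).

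Most genes of protein folding in the endoplasmic reticulum and of collagen processing fell, by small amounts. Of 24, 18 were called lower and 1 higher with cKO 4, and 20 and 1 without it (medians -0.55 and -0.54). The collagen chaperone gene Serpinh1 was at 5348, 5479, 4467 and 6058 CPM in controls 1 to 4 and 2666, 2473, 2741 and 1996 CPM in cKO 1 to 4. Serpinh1 fell, with a log2 fold change of -1.11 ± 0.15 (adjusted p = 0.000595) and of -1.03 ± 0.13 without cKO 4 (adjusted p = 0.000131). The stress factor Atf4 was at 586, 590.5, 471 and 642 CPM in the controls and 282, 260.5, 291 and 262 CPM in cKO 1 to 4 (log2 fold change -1.06 ± 0.11, adjusted p = 0.000116; without cKO 4, -1.05 ± 0.11, adjusted p = 4.21e-05), and its targets Ddit3 and Chac1 fell by 1.47 and 1.55 on the log2 scale (adjusted p = 6.75e-05 and 4.22e-05), and by 1.46 and 1.52 without cKO 4 (adjusted p = 2.67e-05 and 1.62e-05). Of the 21 called without cKO 4, cKO 4 lay within the other cKO libraries in 7 and beyond them in 10. P4ha3, a collagen prolyl hydroxylase subunit, was the gene that rose, by 0.54 on the log2 scale (adjusted p = 0.00735) and by 0.57 without cKO 4 (adjusted p = 0.00445).

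Early response genes rose in part, among them the 7 AP-1 genes Fos, Fosb, Fosl1, Fosl2, Jun, Junb and Jund. Of 15 tested, 9 were called higher and 0 lower with cKO 4, and 9 and 1 without it (medians 0.77 and 0.55). Fosl2, an AP-1 subunit, was at 76.5, 73.2, 85.8 and 65 CPM in controls 1 to 4 and 476, 446, 456 and 445 CPM in cKO 1 to 4. The cKO values lay within a narrow range and included cKO 4. Fosl2 rose, with a log2 fold change of 2.60 ± 0.10 (adjusted p = 1.18e-06) and of 2.61 ± 0.09 without cKO 4 (adjusted p = 5.07e-08). Junb was at 15.5, 10.6, 12.2 and 8.92 CPM in controls 1 to 4 and 79.6, 94.3, 89.8 and 98.4 CPM in cKO 1 to 4 (log2 fold change 2.94 ± 0.16, adjusted p = 7.62e-06; without cKO 4, 2.89 ± 0.15, adjusted p = 6.31e-07), and Jun at 21.4, 22.7, 29.9 and 18.4 CPM in the controls and 107, 89.2, 92.2 and 66.4 CPM in cKO 1 to 4. Jun rose, with a log2 fold change of 1.94 ± 0.18 (adjusted p = 8.57e-05) and of 2.05 ± 0.14 without cKO 4 (adjusted p = 3.84e-06). Egr1, Egr2, Egr3 and Atf3, other early response genes, were not called in either fit.

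Glycolysis and hypoxia response genes rose in part. Of 23 glycolysis genes, 10 were called higher and 3 lower with cKO 4, and 12 and 4 without it, and of 19 hypoxia genes 9 and 3, and 11 and 3. The lactate exporter gene Slc16a3 was at 10.9, 16.8, 15.7 and 23.7 CPM in controls 1 to 4 and 97.6, 73.6, 92 and 40.4 CPM in cKO 1 to 4. Slc16a3 rose, with a log2 fold change of 2.18 ± 0.31 (adjusted p = 0.0007) and of 2.38 ± 0.21 without cKO 4 (adjusted p = 1.67e-05). Pkm, pyruvate kinase, was at 713, 661, 642 and 795 CPM in the controls and 1523, 1517, 1497 and 1588 CPM in cKO 1 to 4, a narrow range that cKO 4 shared. Pkm rose, with a log2 fold change of 1.12 ± 0.10 (adjusted p = 5.6e-05) and of 1.10 ± 0.09 without cKO 4 (adjusted p = 9.74e-06). Eno3, the muscle enolase, was at 4.5, 5.52, 6.57 and 5.88 CPM in the controls and 32.2, 46.9, 56.7 and 7.53 CPM in cKO 1 to 4 and followed the order of the sarcomere genes. Eno3 rose, with a log2 fold change of 2.67 ± 0.53 (adjusted p = 0.00346) and of 3.00 ± 0.20 without cKO 4 (adjusted p = 2.51e-06). Eno1, the enolase of most tissues, was not called (adjusted p = 0.182, and 0.231 without cKO 4). Egln3, an oxygen sensor that hypoxia induces, was at 2.46, 1.78, 1.55 and 1.55 CPM in the controls and 17.7, 18, 20.7 and 9.56 CPM in cKO 1 to 4. Egln3 rose, with a log2 fold change of 3.17 ± 0.28 (adjusted p = 5.6e-05) and of 3.35 ± 0.16 without cKO 4 (adjusted p = 3.59e-07). Vegfa, the angiogenic factor, was at 68.3, 70.9, 58.7 and 76 CPM in controls 1 to 4 and 157, 151, 148 and 153 CPM in cKO 1 to 4. Vegfa rose, with a log2 fold change of 1.15 ± 0.08 (adjusted p = 2.66e-05) and of 1.14 ± 0.09 without cKO 4 (adjusted p = 5.53e-06). Its genotype effect at day 0 had the opposite sign (-0.70 on the log2 scale), and the difference was called (1.83, adjusted p = 4.88e-06; without cKO 4, 1.84, adjusted p = 1.52e-07).

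Few genes of S phase and mitosis were called, and by the list median cKO 4 lay lowest of the 8 libraries. Of 25 tested, 2 were higher and 3 lower with cKO 4, and 6 and 4 without it. The median deviation from the control mean was 0.60, -0.27, -0.14 and -0.17 on the log2 scale in controls 1 to 4 and 0.13, 0.67, 0.65 and -1.18 in cKO 1 to 4, so that control 1 lay close to cKO 2 and 3. Mki67, a marker of cycling cells, was at 80.5, 49.8, 60.3 and 41.1 CPM in controls 1 to 4 and 70.7, 95.9, 96.2 and 25.7 CPM in cKO 1 to 4. Control 1 was inside the range of cKO 1 to 3, and cKO 4 was the lowest of all 8 libraries. For Mki67 the log2 fold change was 0.32 ± 0.38 with all libraries (adjusted p = 0.525) and 0.59 ± 0.20 without cKO 4 (adjusted p = 0.0319). Rrm2, a ribonucleotide reductase subunit, was highest in cKO 4 instead, at 235 CPM against 101.9 to 145 CPM in the other cKO libraries and 33.2 to 66.2 CPM in the controls. Rrm2 rose, with a log2 fold change of 1.87 ± 0.32 (adjusted p = 0.0016) and of 1.58 ± 0.24 without cKO 4 (adjusted p = 0.000423). Cdc6, which licenses replication origins, was at 2.34 to 3.72 CPM in the controls and 7.28, 8.73, 8.68 and 2.45 CPM in cKO 1 to 4. Cdc6 rose, with a log2 fold change of 1.32 ± 0.38 (adjusted p = 0.0204) and of 1.59 ± 0.19 without cKO 4 (adjusted p = 9.32e-05). The Cdc6 call with cKO 4 was lost without control 2, 3 or 4 and without cKO 2 or 3 (adjusted p = 0.0522 to 0.0586).

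Secreted regulators and matrix genes of other connective tissues changed in both directions. The WNT antagonist genes Sfrp5 and Frzb fell: Frzb was at 449, 598, 568 and 621 CPM in controls 1 to 4 and 39.7, 19.9, 34 and 4.23 CPM in cKO 1 to 4 (log2 fold change -4.51 ± 0.59, adjusted p = 0.000448; without cKO 4, -4.17 ± 0.24, adjusted p = 1.26e-06), and Sfrp5 at 6.67 to 11.2 CPM in the controls and 0.101 to 0.216 CPM in cKO. Sfrp5 fell, with a log2 fold change of -5.63 ± 0.31 (adjusted p = 7.3e-06) and of -5.56 ± 0.36 without cKO 4 (adjusted p = 2.27e-06). Dkk3, of the Dickkopf family, went the other way, at 99.6, 163, 242 and 101 CPM in the controls and 809, 787, 754 and 724 CPM in cKO 1 to 4. Dkk3 rose, with a log2 fold change of 2.34 ± 0.28 (adjusted p = 0.000285) and of 2.36 ± 0.28 without cKO 4 (adjusted p = 0.000103). On this list of 11 antagonists, 9 were tested, 4 were higher and 3 lower with cKO 4, and 5 and 3 without it. The growth factor receptor gene Fgfr3, which restrains chondrocyte proliferation, was at 1275, 886, 679 and 985 CPM in the controls and 306, 261, 314 and 113 CPM in cKO 1 to 4. Fgfr3 fell, with a log2 fold change of -1.94 ± 0.33 (adjusted p = 0.0016) and of -1.71 ± 0.19 without cKO 4 (adjusted p = 7.1e-05).

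Of 18 tendon and joint surface genes, 15 were tested, 6 were higher and 3 lower with cKO 4, and 7 and 4 without it. The tendon factor Scx was at 3.79, 3.51, 4.4 and 3.04 CPM in controls 1 to 4 and 17.2, 19.13, 17.9 and 35.2 CPM in cKO 1 to 4. Scx rose, with a log2 fold change of 2.60 ± 0.26 (adjusted p = 0.000125) and of 2.28 ± 0.13 without cKO 4 (adjusted p = 1.05e-06). Prg4, the lubricant of the joint surface, was at 15.6, 20.5, 22.4 and 13.9 CPM in the controls and 67.3, 90.8, 95.9 and 195 CPM in cKO 1 to 4. Prg4 rose, with a log2 fold change of 2.63 ± 0.34 (adjusted p = 0.000398) and of 2.22 ± 0.17 without cKO 4 (adjusted p = 7.44e-06). Thbs2, a matricellular glycoprotein, was at 249.99, 313, 302 and 241 CPM in the controls and 1570.0, 2136, 1546 and 2955 CPM in cKO 1 to 4. Thbs2 rose, with a log2 fold change of 2.89 ± 0.23 (adjusted p = 3.99e-05) and of 2.66 ± 0.14 without cKO 4 (adjusted p = 8.23e-07). In all 3, cKO 4 was the highest library and all cKO libraries were above the controls. Fn1, fibronectin, was at 10381, 12573, 13534 and 10733 CPM in the controls and 28326, 26792, 29811 and 20526 CPM in cKO 1 to 4. Fn1 rose, with a log2 fold change of 1.16 ± 0.20 (adjusted p = 0.00183) and of 1.26 ± 0.16 without cKO 4 (adjusted p = 0.000137). Lum, the collagen-binding proteoglycan lumican, was at 251, 236, 298 and 254 CPM in controls 1 to 4 and 544, 546, 575 and 57.4 CPM in cKO 1 to 4. Here cKO 1 to 3 were above the controls and cKO 4 below them, and Lum passed the threshold without cKO 4 and missed it with that library. For Lum the log2 fold change was 0.73 ± 0.56 with all libraries (adjusted p = 0.313) and 1.09 ± 0.08 without cKO 4 (adjusted p = 7.14e-06). Among matrix proteases and inhibitors, 11 of 18 tested were higher and 3 lower with cKO 4, and 11 and 3 of 19 without it.

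**Figure D4:**
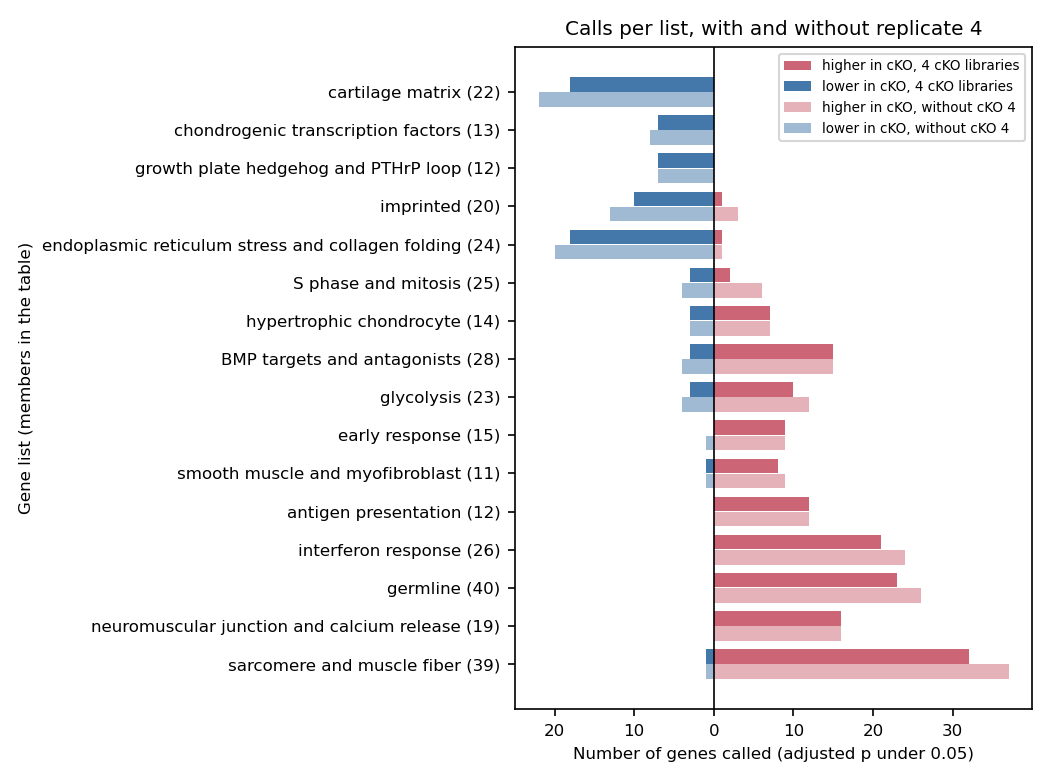
Number of genes called higher (right) or lower (left) in cKO at day 3 for 16 lists, with the number of members in the table in brackets, dark bars for the fit with 4 cKO libraries and pale bars for the fit without cKO 4. Without cKO 4, cartilage matrix goes from 18 to 22 genes called lower, of 22 tested both times. S phase and mitosis goes from 2 to 6 called higher, of 25 tested both times. Sarcomere and muscle fiber goes from 32 called higher of 33 tested to 37 of 38, because more genes passed the expression filter.

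The genes in which cKO 4 stood farthest from the other cKO libraries are given as a description of that library. Serpinb2, a plasminogen activator inhibitor, was at 1.69, 6.16, 3.07 and 161 CPM in cKO 1 to 4 and at 0 to 0.562 CPM in the controls. Nkd2, a WNT inhibitor inside the cell, was at 2.16, 4.04, 2.59 and 90.2 CPM, and the transcriptional repressor gene Prdm1 at 0.583, 1.16, 0.647 and 23 CPM, with all controls at or under 0.62 and 0.124 CPM. For Serpinb2 and Nkd2 the log2 fold changes were 3.98 and 3.26 without cKO 4, against 7.54 and 6.33 with it (adjusted p = 0.00126, 0.00115, 0.0143 and 0.0142). Prdm1, at the floor in every control, was at least 4.16-fold higher without cKO 4 and at least 33.2-fold with it. Aldh3a1, an aldehyde dehydrogenase, was at 0.702, 1.67, 1.49 and 0.879 CPM in controls 1 to 4 and 0.466, 0.353, 0.485 and 12.8 CPM in cKO 1 to 4. Its direction depended on cKO 4, which was the highest library while the other cKO libraries lay below every control. For Aldh3a1 the log2 fold change was 1.54 ± 1.16 with all libraries (adjusted p = 0.303) and -1.46 ± 0.40 without cKO 4 (adjusted p = 0.0119). Igfbp7, an IGF-binding protein, was at 64.5, 79.2, 87.6 and 99 CPM in controls 1 to 4 and 130.0, 140.1, 119 and 1086 CPM in cKO 1 to 4 (log2 fold change 2.16 ± 0.75, adjusted p = 0.0415; without cKO 4, 0.64 ± 0.13, adjusted p = 0.0026), and its call with cKO 4 was lost without any 1 control (adjusted p = 0.0811 to 0.0984) and with a replicate block (adjusted p = 0.0879). Igf1, the growth factor, was at 154 CPM in cKO 4, 16.9 to 22.2 CPM in the other cKO libraries and 13.1 to 22.1 CPM in the controls, and was not called in either fit (adjusted p = 0.0779 and 0.154).

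At the low end, the complement gene C4b was at 529, 365, 459.7 and 6.74 CPM in cKO 1 to 4 and 144 to 388 CPM in the controls, with an adjusted p of 0.774 with cKO 4 and 0.0415 without it. Scrg1, a secreted protein of cartilage, was at 21.5, 10.7, 20.9 and 0.122 CPM in cKO 1 to 4 and 55.1 to 85.3 CPM in the controls. Scrg1 fell, with a log2 fold change of -2.48 ± 0.78 (adjusted p = 0.028) and of -2.09 ± 0.24 without cKO 4 (adjusted p = 9.41e-05). The Scrg1 call with cKO 4 was lost without control 1, 2 or 4 or cKO 2 (adjusted p = 0.0560 to 0.0702) and with a replicate block (adjusted p = 0.0624). Of the 7808 genes called without cKO 4, cKO 4 lay on the same side of all controls as the other cKO libraries in 84.2%, being beyond those libraries in 3703 and between them and the controls in 1531. It lay inside the range of the controls in 738 (9.45%) and on their other side in 499 (6.39%).

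The genotype effect at day 3 was set against that of the untreated day 0 cultures (3 control and 3 cKO libraries of the same genotypes, without BMP2) in 1 fit of 14 libraries. Day, treatment, count table and depth changed together and cannot be told apart. The total count at day 0 was 46911436 to 50701451 in the control libraries and 41749327 to 51741478 in the cKO libraries. Every day 0 library was thus deeper than every day 3 library. The effect was higher at day 3 in 1482 of 14909 genes (9.94%) and lower in 1027 (6.89%), and without cKO 4 in 2326 of 14833 (15.7%) and 1725 (11.6%). Of the muscle lists, 24 of 38 sarcomere genes had a higher effect at day 3 and 1 a lower, and 35 and 1 without cKO 4. In 17 of the 39 listed, every day 3 control was at or under 3 counts. Some, such as Myl1 (day 0 means of 0.00738 CPM in controls and 0 in cKO), passed the filter through the day 3 cKO libraries. The sarcomere count is therefore a description only. Of 23 glycolysis genes, 13 had a higher effect and 0 a lower, and 20 and 0 without cKO 4; Bnip3, a mitophagy receptor that hypoxia induces, went from -1.49 at day 0 to 0.34 at day 3 on the log2 scale (1.81, adjusted p = 0.0024; without cKO 4, 2.01, adjusted p = 1.41e-05). Of 33 germline genes, 2 had a higher effect and 4 a lower, and 3 and 4 without cKO 4. The homeobox gene Hoxc12 was at means of 0.0704 CPM in controls and 0.956 CPM in cKO at day 0 (log2 fold change 3.71) and not called at day 3 (-0.44, adjusted p = 0.34), a difference that was called both ways (-4.15, adjusted p = 0.000639; -4.45, adjusted p = 5.31e-05).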

How the data were processed

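Total RNA was sequenced as NEBNext Ultra II Directional libraries, as the labels' protocols state. The authors deposited estimated counts per gene, not normalized, in 1 table for each day of culture. The build was GRCm38 per the submitters' processing notes, and the aligner, the counter and the annotation are not given in the sources used here. Of 34866 genes in the table, 34582 had a symbol, and the rest were matched by identifier only.

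Samples were grouped by their labels. Estimated counts were rounded to whole numbers, genes were kept with edgeR's filterByExpr (minimum count 10, minimum total 15), and TMM scaling with edgeR 4.0.16 (R 4.3.3) was used in a quasi-likelihood test with Benjamini-Hochberg adjustment, called at an adjusted p under 0.05. CPM values use TMM-scaled library sizes. Fits were made with and without cKO 4, and for the difference between day 3 and day 0 over all 14 culture libraries. The test was tried on simulated data first. A count of 3 per library served as the floor for bounds on folds. Motifs and CpGs were counted in the 250 bases before RefSeq starts of GRCm38.p6, matched to genes by symbol. The first promoter listed for a symbol was used, and its other starts were not counted. Transcript sequence shared between genes was found as 31-base words.

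Alternatives were DESeq2 1.42.0, RLE scaling, no expression filter, a replicate block, all cultures in 1 fit, and leaving out each library in turn. Leaving out libraries from the fits without cKO 4, and the alternatives for the position of cKO 4, were chosen after seeing the data. The members and gene lists were chosen with earlier results of these data known. Genes were named if they belonged to a list, were among up to 12 per direction with the largest change called both ways without overlap between groups and with log2 CPM averaging 1 or more, were among up to 8 per direction in which cKO 4 stood farthest from the other cKO libraries, were among up to 5 per direction with the largest difference between days, or were among up to 5 abundant genes per direction. The cartilage tissue samples of the series were not used, and some genes of the lists are not reported here by name. Total counts per library, and the precision they give, stand with the results.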

Additional observations from a re-analysis of the deposited data

Results flagged for a closer look

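Within groups of 4 libraries, 1 library lay far from the other 3 in 41 groups of values over the 166 genes. The 166 genes gave 332 groups, but groups with every value under 1 CPM were not examined. The share among the groups examined was therefore larger than 41 of 332. Chance flags about 1 in 20 such groups, but some of these genes were chosen because cKO 4 stood apart in them, so the number is a description and no test. In 24 the library was cKO 4 at the high end: Acta2 at 1925 CPM, Actg2 at 289.9 CPM, Aldh3a1 at 12.8 CPM, Atoh8 at 114 CPM, Cnn1 at 42 CPM, Col10a1 at 1479 CPM, Dazl at 43.2 CPM, Dnmt3a at 68.1 CPM, Eng at 455 CPM, Grem1 at 1660.5 CPM, Hoxb9 at 11.9 CPM, Igf1 at 154 CPM, Igfbp7 at 1086 CPM, Msx2 at 38.2 CPM, Nkd2 at 90.2 CPM, Noct at 43061 CPM, Pmaip1 at 21.5 CPM, Prdm1 at 23 CPM, Scx at 35.2 CPM, Serpinb1c at 69.8 CPM, Serpinb2 at 161 CPM, Slc38a6 at 15948 CPM, Tagln at 583 CPM and Vit at 4.04 CPM. In 9 it was cKO 4 at the low end: Ihh at 0.49 CPM, Irf7 at 10.4 CPM, Lhx2 at 3.31 CPM, Lum at 57.4 CPM, Panx3 at 17.2 CPM, Peg10 at 428 CPM, Psmb8 at 9.01 CPM, Smo at 143 CPM and Sox5 at 28.1 CPM. Control 1 was the high library for Cdc6 at 3.72 CPM, Id3 at 132 CPM, Rrm2 at 66.2 CPM and Uhrf1 at 15.7 CPM, and the low library for Acta2 at 158 CPM and Tet1 at 17 CPM. Control 4 was the high library for Myh6 at 2.03 CPM and Sfrp5 at 11.2 CPM.

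The genotype effect of 51 named genes was higher at day 3 of BMP2 than at day 0, and that of 25 was lower, by the interaction test with edgeR's quasi-likelihood test at an adjusted p under 0.05. Without cKO 4, 51 of the first and 25 of the second were called the same way. Over all genes tested, 9.94% were higher and 6.89% lower, and 15.7% and 11.6% without cKO 4. Some genes were named because this difference was called both ways, so the counts are a description and no test. Values are log2 differences of the genotype effects in the fit with cKO 4 and, after the semicolon, in the fit without it, and those of genes near 0 in the controls depend on the prior count. The differences of at least 5 were those of Acta1 (7.41; 7.78), Chrna1 (7.02; 7.37), Des (5.09; 5.44), Dnmt3l (6.02; 5.89), Morc1 (7.27; 7.35), Mov10l1 (5.33; 5.40), Mybpc1 (11.54; 11.98), Myh1 (12.33; 12.70), Myh2 (14.53; 14.95), Mymk (8.43; 8.83), Ryr1 (5.31; 5.66), Serpinb1c (5.31; 5.15), Trim72 (9.29; 9.70), Ttn (6.21; 6.54) and Xirp2 (10.65; 11.05). Between 2 and 5 lay Actg2 (4.17; 2.28), Alpl (3.30; 3.17), Bmper (3.07; 2.87), Cnn1 (2.93; 2.64), Dkk3 (2.64; 2.68), Egln3 (2.21; 2.40), Fabp4 (2.29; 2.17), H2-K1 (3.05; 3.23), Hoxb9 (4.38; 3.29), Ibsp (4.20; 4.61), Itga7 (3.34; 3.55), Lum (2.40; 2.77), Mmp13 (3.23; 3.04), Slc16a3 (2.74; 2.95), Spp1 (2.53; 2.68) and Thbs2 (3.09; 2.88). Under 2 lay Acvr1 (0.52; 0.49), B2m (1.70; 1.79), Bnip3 (1.81; 2.01), Eno3 (1.99; 2.33), Fn1 (0.77; 0.88), Fosl2 (1.59; 1.62), Id3 (0.81; 0.87), Jun (1.49; 1.61), Junb (1.71; 1.68), P4ha3 (1.91; 1.95), Pkm (0.70; 0.70), Prrx1 (0.96; 0.89), Scx (1.42; 1.13), Smad6 (0.87; 0.80), Smad7 (1.21; 0.88), Sp7 (1.24; 1.01), Spry1 (1.69; 1.61), Stat2 (1.93; 2.16), Tpm2 (1.32; 1.29) and Vegfa (1.83; 1.84). Lower effects at day 3 were those of Atf4 (-0.46; -0.43), Cdkn1a (-1.07; -1.11), Cdkn1c (-1.58; -1.30), Chac1 (-0.74; -0.70), Chad (-2.38; -2.26), Col11a1 (-1.69; -1.41), D10Wsu102e (-1.04; -1.27), Dnmt3a (-0.78; -0.88), Hoxc12 (-4.15; -4.45), Ifit2 (-0.35; -0.34), Lrrn3 (-3.81; -3.55), Myh6 (-4.12; -3.78), Nkx3-2 (-0.73; -0.68), Nog (-1.07; -1.26), Pcp4 (-4.90; -4.93), Peg10 (-2.16; -1.88), Peg3 (-1.59; -1.36), Plagl1 (-1.38; -1.28), Ptch1 (-0.55; -0.61), Serpinh1 (-0.63; -0.53), Slc38a6 (-1.20; -1.49), Smad1 (-0.40; -0.35), Sox8 (-1.22; -1.39), Tet1 (-1.97; -1.78) and Tet3 (-0.58; -0.73).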

How the results depend on the processing

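The number of genes called at day 3 (6693) ranged from 5391 with a replicate block to 8622 with all 14 cultures in 1 fit, and from 5694 to 7808 when 1 library was left out. Without cKO 4 (7808), it ranged from 5898 with a replicate block to 8077 with no expression filter. The number of genes whose effect differed between days (2509) moved to 1554 with a replicate block within day and ranged from 1591 to 4051 when 1 library was left out. It was 1591, 1668 and 1604 without control 2, control 3 and cKO 3 of day 0, and 4051 without cKO 4 of day 3. The cause was not tested. Of the named genes called with all libraries, none changed sign under an alternative that was run. Aldh3a1, C4b, Cdkn1a and Runx2, not called with all libraries, changed sign under at least 1 alternative, and Aldh3a1 was then called: its log2 fold change was 1.54 with all libraries and -1.46 to 1.93 when 1 library was left out, the lowest without cKO 4. A list median counted as moved if it shifted by at least the standard deviation of that list's median across the cKO libraries. Of 38 list medians, 8 moved without cKO 4, 6 with no expression filter and 4 to 6 without 1 control. Under the other alternatives 0 to 3 moved. The median of the Hox genes of groups 9 to 13 went from 0.27 to -0.06 without cKO 4.

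The labels do not say whether the replicate numbers pair the cultures. Libraries with the same number had correlations of their deviations of -0.14, -0.09, -0.10 and -0.06. Deviations were taken from the mean of each group, and the cKO mean included cKO 4, so these values cannot decide whether cultures were paired. The replicate block lowered the calls from 6693 to 5391, and from 7808 to 5898 without cKO 4. No library correlated best with the library of its own number in the other group.

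Of 166 named genes, 147 were called at day 3 with all libraries, and 136 of these under every alternative that gave a value. The 11 others were Sox9, Col10a1, Ibsp, Tagln, Ifit2, Igfbp7, Cdc6, Smad1, Bmpr1a, Smtn and Scrg1. Many genes were named because they were called both with and without cKO 4. These counts, and the lack of sign changes above, are therefore a description of the named genes and no test. Of the named genes not called, 15 were called under at least 1 alternative. Leaving out cKO 4 brought 13 further named genes past the threshold with the same sign, and Aldh3a1 with the opposite sign. It cost Col10a1 its call. DESeq2 gave no adjusted p for 10 named genes. With 14434197 to 18918714 counts per library, a gene at or under 3 counts in all controls allows only a lower bound on its fold.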

Other observations

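Patterning genes of the limb changed in both directions at day 3, as did the genes tested as a whole. Of the latter, 25.5% were higher and 22.6% lower with cKO 4, and 28.8% and 26.4% without it. Of 18 limb mesenchyme transcription factors, 17 were tested with cKO 4, 7 were called higher and 5 lower, and 9 and 6 of 18 without it. Prrx1, whose promoter drives the Cre, was at 234, 171, 209.6 and 179 CPM in controls 1 to 4 and 305, 312, 278 and 371 CPM in cKO 1 to 4. Prrx1 rose, with a log2 fold change of 0.67 ± 0.13 (adjusted p = 0.00277) and of 0.59 ± 0.11 without cKO 4 (adjusted p = 0.00133). Tbx4, the hindlimb T-box factor, was at 16.2, 19.5, 19.08 and 12.8 CPM in controls 1 to 4 and 5.88, 6.11, 7.71 and 1.41 CPM in cKO 1 to 4 (log2 fold change -1.67 ± 0.41, adjusted p = 0.00981; without cKO 4, -1.37 ± 0.17, adjusted p = 0.000144), and Lhx2, a factor of limb outgrowth, at 1.19, 0.223, 0.868 and 1.15 CPM in controls 1 to 4 and 7.87, 7.67, 7.87 and 3.31 CPM in cKO 1 to 4. Lhx2 rose, with a log2 fold change of 2.97 ± 0.47 (adjusted p = 0.00115) and of 3.20 ± 0.35 without cKO 4 (adjusted p = 6.08e-05). Of 14 tested Hox genes of groups 9 to 13, 5 were called higher and 3 lower with cKO 4, and 4 and 3 without it. These Hox counts were near the shares over all genes tested. Hoxd13, the most distal HoxD gene, was at 0 to 0.492 CPM in the controls and 4.78, 3.53, 3.02 and 1.65 CPM in cKO 1 to 4. Hoxd13 rose, with a log2 fold change of 3.62 ± 0.64 (adjusted p = 0.00199) and of 3.84 ± 0.52 without cKO 4 (adjusted p = 0.000249). Hoxb9 was at 0 to 0.562 CPM in the controls and 2.16, 1.92, 2.05 and 11.9 CPM in cKO 1 to 4, with cKO 4 well above the others. Hoxb9 rose, with a log2 fold change of 4.60 ± 1.01 (adjusted p = 0.00575) and of 3.48 ± 0.62 without cKO 4 (adjusted p = 0.00121).

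Of 15 tested genes of the fibroblast growth factor axis, 5 were called higher and 4 lower with cKO 4, and 4 and 4 without it. These counts were near the shares over all genes tested (25.5% higher and 22.6% lower, and 28.8% and 26.4% without cKO 4). Fgf7, a mesenchymal growth factor, was at 45.3, 47.5, 62 and 39.9 CPM in controls 1 to 4 and 145, 222, 167 and 354 CPM in cKO 1 to 4. Fgf7 rose, with a log2 fold change of 2.19 ± 0.29 (adjusted p = 0.000434) and of 1.87 ± 0.17 without cKO 4 (adjusted p = 1.88e-05). Spry1, a feedback inhibitor of receptor tyrosine kinases, was at 0.338 to 0.558 CPM in the controls and 2.8, 3.58, 3.24 and 3.98 CPM in cKO 1 to 4. Spry1 rose, with a log2 fold change of 2.93 ± 0.24 (adjusted p = 4.57e-05) and of 2.84 ± 0.26 without cKO 4 (adjusted p = 2.15e-05). Mmp3, stromelysin, was at 0.406 to 1.69 CPM in the controls and 15, 8.43, 9.76 and 14.4 CPM in cKO 1 to 4. Mmp3 rose, with a log2 fold change of 3.40 ± 0.38 (adjusted p = 0.000201) and of 3.29 ± 0.35 without cKO 4 (adjusted p = 5.2e-05). Of 18 p53 targets, 3 were called higher and 3 lower with cKO 4, and 3 and 5 without it. Cdkn1a, the p53 target that arrests the cell cycle, was at 522 to 643 CPM in the controls and 531 to 607 CPM in cKO and was not called (adjusted p = 0.702, and 0.331 without cKO 4), while Pmaip1, the BH3-only protein Noxa, was at 3.04 to 5.13 and 10.4, 10.6, 11.5 and 21.5 CPM. Pmaip1 rose, with a log2 fold change of 1.84 ± 0.29 (adjusted p = 0.00111) and of 1.53 ± 0.18 without cKO 4 (adjusted p = 9.41e-05). Fabp4, a fatty acid binding protein of adipocytes and some other cells, was at 1.17 to 2.53 CPM in the controls and 29.9, 29.3, 26.3 and 41.2 CPM in cKO 1 to 4. Fabp4 rose, with a log2 fold change of 4.05 ± 0.24 (adjusted p = 1.07e-05) and of 3.90 ± 0.18 without cKO 4 (adjusted p = 3.21e-07).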
